A study of Mus musculus with 2 samples.

Results

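The genes Mef2a, Mef2b, Mef2c and Mef2d, which encode the MEF2 transcription factors, and Hdac4, Hdac5, Hdac7 and Hdac9, which encode the class IIa histone deacetylases, were followed in the newborn mouse cortex. They were chosen by name, as 8 of 55536 annotated genes, together with all 110 of their annotated transcripts. Total RNA-seq libraries were made from left cerebral cortex tissue of female mice of the strain B6CASTF1/J, a cross of C57BL/6J and CAST/EiJ, at an age of 4 days. There were 2 libraries in 1 group, replicates 1 and 2, each made from 300 ng of RNA with ERCC spike-in RNAs, and no condition was contrasted. The labels describe 2 differently numbered females with separate biosamples, but give both the same donor identifier. The SD therefore measures the spread between these 2 samples, and whether it is fully biological is not settled by the labels.

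MEF2 proteins bind A/T-rich sites in DNA through a MADS box and the adjoining MEF2 domain. In neurons they are known as activity-regulated factors that act on synapse number and on the survival of the cell. Class IIa deacetylases bind the same domain and repress MEF2 target genes with corepressors. Phosphorylation by calcium-dependent and other kinases lets the Ywha proteins, also called 14-3-3 proteins, hold the deacetylases in the cytoplasm. Mef2c is the family member most associated with cortical excitatory neurons.

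The shared DNA-binding part of the family can be read in the first coding exon, which is 54 bases long in each gene. It is shown 5′ to 3′ from the leading transcript of each gene (GENCODE M21 on GRCm38), with capitals at each base that differs from Mef2c.
Mef2c: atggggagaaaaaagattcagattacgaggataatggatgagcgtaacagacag
Mef2a: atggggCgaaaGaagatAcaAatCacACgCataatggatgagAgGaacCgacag
Mef2d: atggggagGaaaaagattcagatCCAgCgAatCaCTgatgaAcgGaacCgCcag
Mef2b: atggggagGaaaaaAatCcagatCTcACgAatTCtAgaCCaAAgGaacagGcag
These exons lie at chr13:83575677-83575730 on the plus strand (Mef2c), chr7:67316792-67316845 on the minus strand (Mef2a), chr3:88155809-88155862 on the plus strand (Mef2d) and chr8:70164251-70164304 on the plus strand (Mef2b). Mef2a differed from Mef2c at 11 of the 54 bases, Mef2d at 13 and Mef2b at 17. Over the first 2 coding exons together, 258 bases that encode the MADS box and the MEF2 domain, Mef2c shared 83.7% of its bases with Mef2d, 81.0% with Mef2a and 77.9% with Mef2b. Reads were divided among the members with little ambiguity all the same: the deposited posterior SD of the gene count was 0 for all 8 members in both libraries.

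Further along the coding sequence, Mef2a, Mef2c and Mef2d each carry a pair of neighbouring exons that are known to be used in place of each other, although 2 complete Mef2c transcripts hold neither. In the literature they are called the alpha exons, and the downstream exon is known chiefly from skeletal muscle and heart. The pairs of Mef2c and Mef2d are printed 5′ to 3′ because the transcript data below turn on them, with capitals at bases that are identical between the exons of a pair once aligned.
Mef2c upstream exon: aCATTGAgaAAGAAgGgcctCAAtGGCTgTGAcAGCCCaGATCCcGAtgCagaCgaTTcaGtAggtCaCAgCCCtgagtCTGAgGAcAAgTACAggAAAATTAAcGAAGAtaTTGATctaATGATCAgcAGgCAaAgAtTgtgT
Mef2c downstream exon: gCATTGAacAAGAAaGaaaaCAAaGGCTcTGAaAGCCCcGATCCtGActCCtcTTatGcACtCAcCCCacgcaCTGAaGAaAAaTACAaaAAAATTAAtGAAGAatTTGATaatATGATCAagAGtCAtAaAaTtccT
Mef2d upstream exon: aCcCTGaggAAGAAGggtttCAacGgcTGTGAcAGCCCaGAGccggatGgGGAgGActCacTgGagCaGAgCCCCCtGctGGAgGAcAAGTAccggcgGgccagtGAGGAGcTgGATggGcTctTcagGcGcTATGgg
Mef2d downstream exon: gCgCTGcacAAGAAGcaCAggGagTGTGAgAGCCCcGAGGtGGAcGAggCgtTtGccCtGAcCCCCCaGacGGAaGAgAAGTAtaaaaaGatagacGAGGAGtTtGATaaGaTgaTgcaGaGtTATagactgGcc
The exons lie at chr13:83625265-83625408 and chr13:83625470-83625607 for Mef2c, and chr3:88158034-88158171 and chr3:88158221-88158355 for Mef2d. Within a gene, the exons of a pair shared 63.2% of aligned columns in Mef2c and 51.4% in Mef2d. Between Mef2c and Mef2d, exons at the same position shared 63.9% (upstream) and 65.2% (downstream), and exons at opposite positions 49.7% and 57.9%.

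Mef2c stood far above the other members. The levels in this paragraph are TPM values of the first deposited table, made by a quantifier whose columns are those of RSEM; TPM divides the reads of a gene by its length and gives the share of all annotated RNA. Mef2c had 556 TPM in replicate 1 against 544 TPM in replicate 2, or 550 ± 8.06 TPM (SD, n = 2), from counts of 35174 and 33334. It ranked 74 and 72 among annotated protein-coding genes, where the median detected gene was at 17.2 TPM. Mef2d, a broadly expressed member, was at 55.95 TPM and 60.2 TPM. Mef2a, also broadly expressed, was at 53.8 TPM and 57.2 TPM. Mef2d was above Mef2a within each library, although their ranges overlapped. The second table put Mef2a above Mef2d, so the order of Mef2d and Mef2a is not given by these data. Mef2b, known mainly from B lymphocytes, was at 0.47 TPM and 0.36 TPM, from only 11 and 8 counts.

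Among the deacetylases Hdac5 led in gene TPM, which counts transcripts of every class, with 89.1 TPM in replicate 1 against 102 TPM in replicate 2. Protein-coding transcripts held only 27.1% and 33.7% of the Hdac5 level in the first table, against 88.7% and 84.3% for Hdac4. In the second table they held 37.1% and 40.2% for Hdac5, against 89.7% and 80.3% for Hdac4. Over coding transcripts alone Hdac5 therefore did not lead throughout. Hdac4 lay above it in replicate 1 of the first table and in both libraries of the second. Only in replicate 2 of the first table was Hdac5 above Hdac4. Hdac4, which in neurons shuttles between nucleus and cytoplasm, was at 32.96 TPM and 39.1 TPM. Hdac9, which also encodes forms without a deacetylase domain, was at 21.99 TPM and 23.6 TPM. Hdac7, best known from endothelium and developing thymocytes, was lowest at 17.3 TPM and 20.5 TPM. No range of a deacetylase overlapped that of another deacetylase.

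With detection defined as 1 TPM or more in each library, 7 of the 8 members were detected, the exception being Mef2b. The same rule detected 59.6% of all annotated protein-coding genes. In bulk tissue, fewer cells of a type and less RNA per cell cannot be told apart, so these levels belong to the tissue and not to a cell type.

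**Figure D1:**
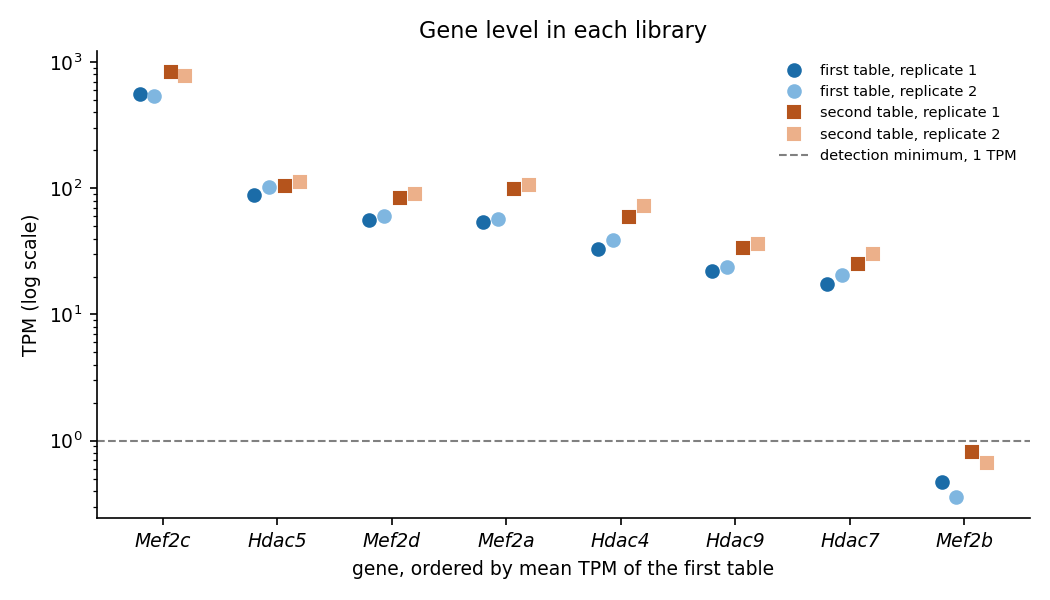
Level of each gene in TPM on a log axis, in replicates 1 and 2 of the first table (circles) and of the second table (squares), with the detection minimum of 1 TPM as a dashed line. Mef2c sits above all other members in both tables, and Mef2b alone lies under the line.

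The order from high to low was Mef2c, Hdac5, Mef2d, Mef2a, Hdac4, Hdac9, Hdac7 and Mef2b. Of its 7 pairs of neighbours, 6 did not overlap between libraries and 1 did, Mef2d with Mef2a, whose TPM ratios were 1.04 and 1.05. The share of such pairs among other genes was not computed. The closest pair without overlap was Hdac9 over Hdac7, with TPM ratios of 1.27 in replicate 1 and 1.15 in replicate 2. Mef2c exceeded Hdac5, its neighbour, 6.24-fold and 5.35-fold.

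Pairs were also compared as log2 ratios of TPM + 1 and called apart where the ratio was at least 1 in size and of the same sign in both libraries. By that rule 20 of the 28 pairs were apart and 8 were not. The 20 include every pair that holds Mef2b, which was under the detection minimum. The share over pairs of all genes was not computed, so the count only describes these members. Mef2c was apart from every other member, with a log2 ratio of 3.22 ± 0.09 over Mef2d and 3.29 over Mef2a (SD of the latter 0.08, n = 2). In the first table Hdac5 was apart from each of the other deacetylases, by a log2 ratio of 1.38 over Hdac4, 2.02 over Hdac9 and 2.28 over Hdac7. Its pair with Hdac4 was not apart in the second table. Mef2a and Mef2d were apart neither from each other nor from Hdac4 or Hdac5.

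As a share of the summed TPM of the 4 Mef2 genes, Mef2c took 83.4% in replicate 1 and 82.2% in replicate 2, or 82.8% ± 0.872 (SD, n = 2). Mef2d took 8.75% ± 0.490 and Mef2a 8.36% ± 0.393. Among the class IIa genes of the first table Hdac5 took 55.1% ± 0.145 of the summed TPM, Hdac4 20.8% ± 0.496, Hdac9 13.2% ± 0.614 and Hdac7 10.9% ± 0.262. The Mef2 genes together reached 666 TPM and 662 TPM, and the class IIa genes 161 TPM and 185 TPM. The ratio of the sums was 4.13 in replicate 1 and 3.58 in replicate 2, a log2 ratio of 1.94 ± 0.14 (SD, n = 2). Hdac5 alone exceeded Mef2a and Mef2d, each taken singly, in both libraries. These sums, shares and orders count transcripts of every class, and only 27.1% and 33.7% of the Hdac5 level lay in protein-coding transcripts.

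A second deposited table, made directly from the reads by another quantifier, gave higher TPM for every member. In it Mef2c was at 836 TPM and 784 TPM, and Hdac5 at 105 TPM and 113 TPM. Hdac4 was at 58.9 TPM and 72.1 TPM there, so Hdac5 was no longer apart from it. Hdac5 also took a smaller share of the summed class IIa TPM than in the first table, and Hdac4 a larger one, in both libraries. Protein-coding genes held 84.4% and 84.0% of all TPM in the second table, against 52.3% and 53.1% in the first. Mef2a, at 99.3 TPM and 107 TPM in the second table, moved above Mef2d, at 83.5 TPM and 90.1 TPM, and its range overlapped that of Hdac5. Mef2b remained under the minimum there too, at 0.809 TPM and 0.670 TPM.

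The count of each member was then compared between the libraries after TMM scaling, a scaling that assumes most genes are alike. Mef2c was 0.933 times as high in replicate 2 as in replicate 1, with an exact 95% interval of 0.920 to 0.948. Hdac7 was 1.16 times as high, with an interval of 1.07 to 1.27. Mef2a was 1.06 times as high, with an interval of 1.01 to 1.10. Its ratio in the second table was nearer 1, at 1.03, and no interval was computed for that table. For these 3 of the 8 members the interval left out 1, and it held 1 for the other 5. The share of all genes whose interval left out 1 was not computed. An interval narrows as counts rise, so this count depends on depth and sets the members apart from no other genes. The intervals cover counting error only, and with 1 library on each side they compare these libraries and no condition.

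Only 1 of the 8 members was at least 1.2-fold apart between the libraries, against 28.3% of the 18492 genes that had 20 or more counts in the libraries together. That member was Mef2b, which at 19 counts falls short of those 20, so that by the same rule it was 0 of 7 members. Mef2b was at 0.716 from 11 and 8 counts, with an interval of 0.250 to 1.96, and no member was that far higher in replicate 2, where 18.2% of genes were. A scaled count was higher in replicate 2 for 4 of the 8 members, against 48.3% of those genes. In TPM, 6 of the 8 were higher in replicate 2, against 64.9% of detected protein-coding genes. The ratios of Mef2d and Hdac5 were so near 1 that their side of it changed with the scaling or the table. Blood genes differed more: Hbb-bs, a beta-globin gene, had 153 TPM in replicate 1 against 20.3 TPM in replicate 2. The part of blood RNA in the differences of the members was not tested.

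**Figure D2:**
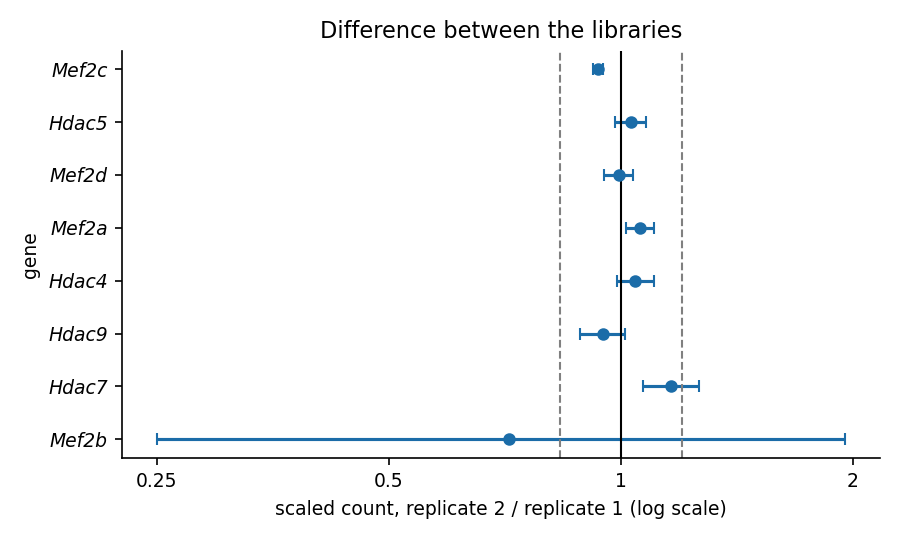
Scaled count in replicate 2 over that in replicate 1 for each gene, on a log axis, with exact 95% intervals for counting error; dashed lines mark 1.2-fold in either direction. The 7 detected members lie between the dashed lines, and Mef2b, with 11 and 8 counts, has an interval from 0.250 to 1.96.

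At the level of transcripts, Mef2c has 31 annotated forms, of which 27 are coding and 13 of those have a complete coding sequence. Mef2c-212, with 11 exons at chr13:83573607-83667080 and a coding sequence of 1326 bases, was at 229 TPM and 224 TPM in the first table. That was 41.1% of the gene in both libraries, and 33.5% and 34.1% in the second table. Mef2c-219, also complete, held 14.5% and 13.5% in the first table, with 6.66% and 5.97% in the second. Mef2c-217, a short form of 689 bases with an incomplete coding sequence, held 13.3% and 13.4% in the first table, with 7.73% and 8.99% in the second. The libraries were within 1 percentage point of each other for Mef2c-212, while the tables differed by more.

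Mef2a-208, the longest complete form of Mef2a, held 57.8% and 59.4% in the first table, with 42.5% and 40.6% in the second. Mef2a-205, which is incomplete, held 17.0% and 15.1% in the first table, with 21.02% and 18.1% in the second. Mef2a-210, another incomplete form, was listed at 0 in both libraries of the first table but held 20.2% and 19.1% in the second. For Mef2a the tables thus assigned RNA to different short forms.

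Mef2d-201 held 54.8% and 52.3% of Mef2d in the first table, with 51.3% and 48.0% in the second. Mef2d-204 held 20.8% and 21.8%, against 22.1% and 21.8% in the second table. Mef2d-203 held 17.1% and 18.9%, against 18.6% and 20.7%. All 3 are complete, and Mef2d was the gene whose transcripts the tables divided most alike among these 3 Mef2 genes. At 11 and 8 counts the forms of Mef2b cannot be ordered: Mef2b-203 held all of its TPM in 3 of the 4 tables of the libraries, and Mef2b-205 nearly all in the remaining table.

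The leading transcript was the same in both libraries and both tables for 5 of the 8 members, against 65.9% of 11873 detected protein-coding genes with several transcripts. These were Mef2a-208, Mef2c-212, Mef2d-201, Hdac5-204 and Hdac9-201. For Hdac4 it changed between libraries: Hdac4-202, a complete form of 8100 bases, led in replicate 1 of the first table at 40.7%, and Hdac4-205, an incomplete form of 849 bases, led in replicate 2 at 39.1%. In the other library these forms held 36.4% and 31.9%. For Hdac7 it changed between tables: Hdac7-211, a retained-intron model of 1572 bases, led in the first at 26.6% and 24.3%, and Hdac7-202, a complete form, in the second at 28.3% and 29.8%.

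The alternative coding exons were read from these transcript levels, as the share of the gene's coding-transcript TPM held by transcripts with the exon. Mef2d used its upstream alpha exon in 99.4% and 99.1% of that TPM in the first table, and its downstream exon in 0.595% and 0.938%. In the second table the upstream exon was at 97.8% ± 0.909 and the downstream at 2.25% ± 0.909 (SD, n = 2). Of the 3 genes Mef2d had the highest share for the upstream exon in both tables.

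In Mef2c the upstream alpha exon, the first of the pairs printed above, was at 50.5% and 50.9% and the downstream exon at 6.50% and 6.70% in the first table. Over complete coding transcripts alone, a denominator chosen after seeing the data that leaves out the annotated fragments, the upstream exon was at 76.0% ± 0.370 and the downstream at 1.46% ± 0.472 (SD, n = 2). The second table gave 81.1% ± 2.08 and 2.81% ± 0.780 over complete transcripts. The remaining 22.5% ± 0.842 and 16.1% ± 2.86 lay in Mef2c-219 and Mef2c-225, which hold neither exon. The fragments matter here: Mef2c-217 and 2 other forms cover only part of the downstream exon, and 3 further forms cover only part of the upstream exon. With these counted, an alternative chosen after seeing the data, the downstream exon was at 20.3% and 21.1% in the first table and the upstream exon at 61.2% and 61.9%. The second table then gave 11.1% ± 2.18 and 75.7% ± 0.047 (SD, n = 2). The upstream exon exceeded the downstream exon in both libraries and both tables in all 3 ways of counting, but the level of the downstream exon in Mef2c ran from 1.46% to 20.7% in the first table with the way of counting.

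In Mef2a the upstream alpha exon led as well. Over complete transcripts the downstream exon was at 12.8% ± 1.90 in the first table, with 16.4% ± 1.75 in the second, and the upstream exon at 87.2% ± 1.90 and 83.6% ± 1.75 (SD, n = 2). Over complete transcripts the downstream exon of Mef2a lay above those of Mef2c and Mef2d in both libraries and both tables. The same held over all coding transcripts when only whole copies of the exon were counted. Mef2a was then at 9.12% and 11.6% in the first table, against 6.50% and 6.70% for Mef2c. The second table gave 8.37% and 10.1% against 1.51% and 2.25%. Only with the partial copies in Mef2c fragments counted did Mef2a lie below Mef2c, in both libraries and both tables. Mef2c was then at 9.55% and 12.6% in the second table. Of 8 genes known from skeletal and heart muscle, 3 were detected, and their summed level was 9.93 TPM and 8.24 TPM. The detected genes were Myh7 at 3.26 TPM and 2.75 TPM, Acta1 at 2.68 TPM and 2.73 TPM, and Myh6 at 2.97 TPM and 1.34 TPM. Myog and Myod1, which define the skeletal muscle lineage, were the lowest of the 8. They were listed at 0 in replicate 1 and at 0.04 TPM and 0.03 TPM in replicate 2. The part of muscle RNA in the downstream exon values was not tested.

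A short exon further along, known as the beta exon, was also optional. It is printed 5′ to 3′ because its length is a multiple of 3 in each gene, so that it adds or removes whole codons; capitals mark in-frame codons for glutamate.
Mef2a short exon: tcgGAGGAAGAGGAAttgGAGttg
Mef2c short exon: tctGAGgatgtggatctgctgttg
Mef2d short exon: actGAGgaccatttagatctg
The exons lie at chr7:67244521-67244544 for Mef2a, chr13:83654598-83654621 for Mef2c and chr3:88161781-88161801 for Mef2d. Mef2a has 24 bases with 5 glutamate codons, Mef2c 24 bases with 1, and Mef2d 21 bases with 1. Over all coding transcripts the short exon was held by 70.4% ± 0.177 of TPM in Mef2a, 53.4% ± 0.469 in Mef2c and 19.2% ± 1.28 in Mef2d in the first table, and by 68.2%, 60.7% and 21.1% in the second (SD, n = 2). Over complete coding transcripts of the first table it was held by 87.2% ± 1.90 of TPM in Mef2a, 76.0% ± 0.450 in Mef2c and 19.2% ± 1.28 in Mef2d (SD, n = 2). The second table gave 82.2% ± 2.17, 87.2% ± 0.160 and 21.1% ± 1.64. Mef2d held it less than Mef2a and Mef2c in both libraries and both tables, while Mef2a was above Mef2c in both tables over all coding transcripts, but only in the first over complete ones.

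Mef2c alone has an annotated optional start of its last coding exon, a stretch of 96 bases known as the gamma region, which is known to lower the activity of the protein. It is printed 5′ to 3′ with its in-frame glutamate codon in capitals.
Mef2c optional start of the last coding exon: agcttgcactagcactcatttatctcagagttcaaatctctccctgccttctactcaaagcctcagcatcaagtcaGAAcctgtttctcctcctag
It lies at chr13:83662307-83662402. Over all coding transcripts it was held by 22.1% and 21.6% of TPM in the first table, with 26.2% and 27.0% in the second. Over complete coding transcripts, the denominator chosen later, it was held by 33.9% and 32.8% of TPM in the first table, with by 39.2% and 40.3% in the second. Transcripts without this stretch were thus the larger part in both libraries and tables.

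**Figure D3:**
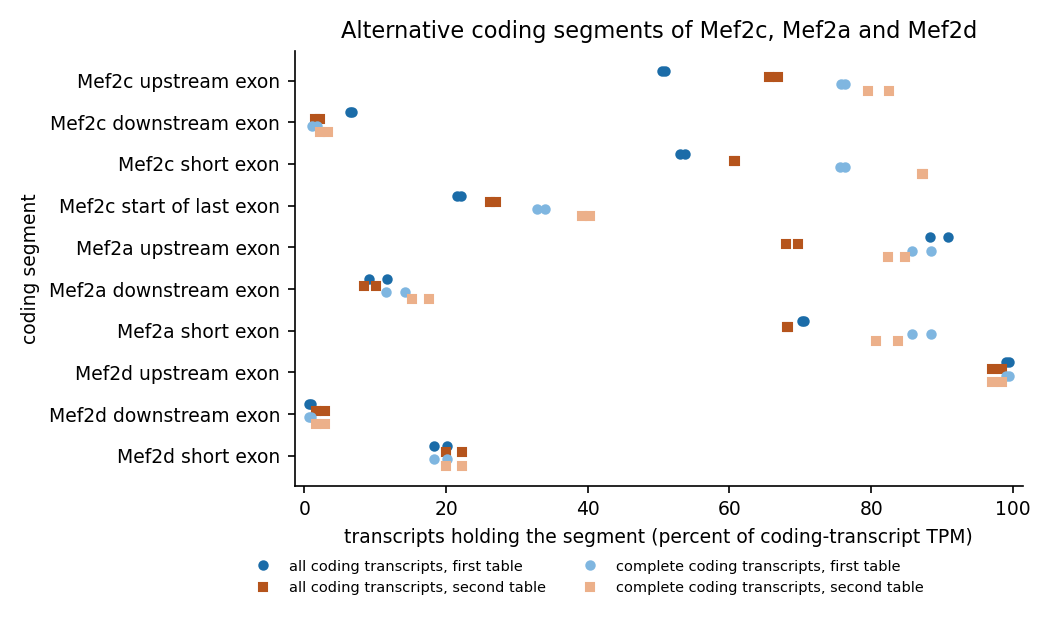
Percent of coding-transcript TPM in transcripts that hold each alternative coding segment, by gene; circles are the first table, squares the second, dark symbols use all coding transcripts and light symbols only complete ones, and the 2 symbols of a kind are the replicates. Mef2d lies near 100 for the upstream exon and near 20 for the short exon in both tables, while the upstream and short exons of Mef2c move with the table and the denominator.

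Among complete coding transcripts of Hdac9, the forms known to lack the deacetylase domain held the larger part. Of its 7 complete coding transcripts, Hdac9-201, Hdac9-203 and Hdac9-208 have short coding sequences of 1632 to 1764 bases that end in the exon chr12:34373830-34374138. The other 4 have 2808 to 3201 coding bases and continue into further exons. The short forms held 65.7% and 68.8% of the TPM of the complete forms in the first table, and 71.9% and 75.1% in the second. Of the whole gene they held 56.1% and 58.9% in the first table, but 49.8% and 52.2% in the second. Hdac9-201 led in both tables, with 33.7% and 35.1% of the whole gene in the first and 29.9% and 29.2% in the second. Hdac9-208 held 22.4% and 19.4% in the first table but 5.81% and 1.83% in the second, so the division among the short forms depended on the table.

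Hdac5 and Hdac7 differed from the other members in how much of their TPM was assigned to transcripts annotated with a retained intron. In Hdac5, with 10 such models among 20 transcripts, they held 47.7% and 50.2% in the first table, or 48.9% ± 1.73 (SD, n = 2). In Hdac7, with 2 such models among 13, they held 43.5% and 44.0%. For the other detected members the mean was between 4.93% in Mef2c and 11.2% in Mef2a. Among 7629 genes with annotated retained-intron models the median was 11.3% and 13.8%. Hdac5 lay above 93.2% and 93.4% of these genes, and Hdac7 above 91.6% and 90.6%.

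The size of these shares depended on the unit and table. The second table gave 35.1% ± 3.61 for Hdac5 and 29.7% ± 0.225 for Hdac7 (SD, n = 2), which was above 83.1% and 85.9% of those genes for Hdac5 and 80.4% and 77.4% for Hdac7. As a share of counts, in which long transcripts weigh more, Hdac5 was at 22.1% ± 1.88 and Hdac7 at 42.7% ± 1.19. The Hdac5 model with the most TPM of this kind, Hdac5-211, was only 754 bases long. It held 17.3% and 13.9% in the first table but 1.31% and 1.62% in the second, and was named after its values were seen. The leading coding form, Hdac5-204, held 18.1% and 17.5% in the first table, with 25.1% and 26.0% in the second. Hdac5-205, also named after its values were seen, carries the label of nonsense-mediated decay and held 16.3% and 8.88%.

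**Figure D4:**
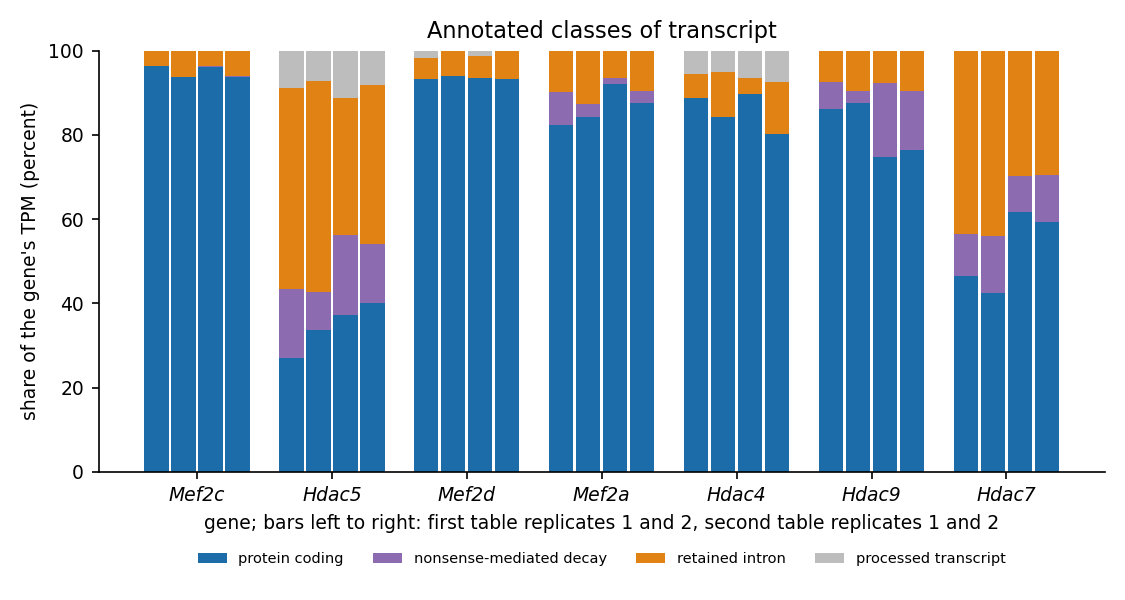
Share of each detected gene's TPM by annotated class of transcript, in percent, with a stacked bar for each replicate of the first and then the second table. Retained-intron models take 43.5% to 50.2% of Hdac5 and Hdac7 in the first table and less in the second, and protein-coding forms take most of the other genes.

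The region around the annotated starts was searched for CTA, any 4 bases, then TAG, a pattern that reads the same on both strands. It is looser than the core of the MEF2 binding site, in which the 4 middle bases are A or T. The windows were 250 bases before to 50 after each RefSeq start on GRCm38.p6. All 8 members had at least 1 window, and 3 of their 14 windows held the letters. They belonged to Mef2a, Hdac5 and Hdac9, and 3.69% of all 32851 windows held a match. The stretches are printed 5′ to 3′ on the strand of the gene, with the match in capitals.
Mef2a: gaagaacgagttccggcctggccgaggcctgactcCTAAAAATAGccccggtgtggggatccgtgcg
Hdac5: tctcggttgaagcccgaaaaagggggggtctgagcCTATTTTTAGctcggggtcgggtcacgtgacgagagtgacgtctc
Hdac9: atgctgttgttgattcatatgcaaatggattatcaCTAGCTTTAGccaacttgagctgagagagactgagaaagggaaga
They lie at chr7:67372829-67372895, chr11:102230148-102230227 and chr12:34528877-34528956, all on the minus strand. The match began 2 bases before the start in Mef2a, 20 in Hdac5 and 32 in Hdac9. The leading transcript began at the same base as the RefSeq start in Mef2a, 6 bases from it in Hdac5 and 15 bases from it in Hdac9. The 4 middle bases of the match were all A or T in Mef2a and Hdac5, but included G and C in Hdac9. The Hdac9 match thus fits the looser pattern only, and the share over all windows is for that pattern too. A match is a description of the letters and does not show binding. Mef2c-212 began exactly at a RefSeq start as well, and its window held no match.

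Overlapping annotation touched 7 of the members, with 14 overlapping genes in all and none over Mef2c. Mef2b shares 7609 bases and its strand with Borcs8, a lysosome-positioning gene, which was at 17.97 TPM and 22.2 TPM. Mef2a is overlapped on the other strand by Lysmd4, at 17.6 TPM and 16.2 TPM. Hdac7 meets Slc48a1, a heme transporter gene on the other strand at 44.0 TPM and 42.0 TPM, over 29 bases. Of the other genes, those over Mef2a were Gm44667 and Gm44668, that over Mef2d 1700113A16Rik, those over Hdac4 Gm37048, Gm26720 and Gm37036, and that over Hdac5 Mir8101. Those over Hdac9 were Gm18025, Gm47357, 4921508M14Rik and Gm24429. None of these exceeded 3.16 TPM in a library. Because the strand setting of the counting is not given in the sources used here, reads from opposite strands may not have been told apart.

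Of 62 listed genes that work with the members, 60 were detected, where the same rule detected 59.6% of all annotated protein-coding genes. The lists were chosen by name with earlier results of these data known. The counts of detected genes here and below therefore describe the lists and are no finding about partners. All 7 deacetylases of the other classes were detected, with a median of 35.9 TPM. The highest were Hdac2 at 101 ± 1.52 TPM, Hdac3 at 52.2 TPM and Hdac11 at 38.75 TPM, and the lowest Hdac8 at 4.83 TPM. In the order of all 11 deacetylases by mean TPM, Hdac5 came after Hdac2, and Hdac4, Hdac9 and Hdac7 took places 5, 7 and 9. Hdac5 was at 89.1 TPM and 102 TPM and Hdac2 at 99.6 TPM and 102 TPM, so their ranges overlapped.

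All 5 corepressor partners were detected, with a median of 47.95 TPM. Ncor1, a large scaffold through which class IIa proteins recruit Hdac3, was at 141 ± 2.91 TPM. Tbl1xr1 was at 47.95 TPM, and Gps2 was lowest at 18.8 TPM. All 4 coactivators were detected, with a median of 34.8 TPM. The acetyltransferase genes Crebbp and Ep300 were at 44.3 TPM and 34.0 TPM, Ncoa2 at 35.6 TPM, and Kat2b was lowest at 7.36 TPM.

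Kinases that phosphorylate class IIa deacetylases were all detected, 15 of 15, with a median of 32.45 TPM. The highest were the calcium/calmodulin-dependent kinase genes Camk2b at 298 ± 4.99 TPM, Camk2a at 114 ± 10.3 TPM and Camk2g at 93.97 TPM. Prkd2, a protein kinase D gene, was lowest at 3.69 TPM. Of the 7 Ywha-family genes, which encode the proteins that hold phosphorylated deacetylases in the cytoplasm, 6 were detected, with a median of 352 TPM over the list. Ywhae was at 878 ± 68.0 TPM, Ywhag at 745 ± 10.9 TPM and Ywhaz at 711 ± 16.5 TPM. Sfn, the epithelial member, was at 1.09 TPM and 0.93 TPM and missed detection. This list had the highest median of the 8 lists of partners.

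All 8 calcineurin and MAP kinase inputs were detected, with a median of 54.9 TPM. The calcineurin genes Ppp3cb, Ppp3ca and Ppp3r1 were highest at 174 ± 3.64 TPM, 163 ± 0.205 TPM and 107 ± 0.750 TPM, and Ppp3cc was lowest at 12.5 TPM. All 12 genes described as MEF2 targets in neurons were detected, with a median of 28.5 TPM. Pcdh10, a protocadherin gene, was at 91.9 ± 2.07 TPM. The activity-induced neurotrophin gene Bdnf had the lowest mean, from 2.53 TPM and 2.47 TPM, although Arc, another activity-induced gene, was lower in replicate 1 at 2.11 TPM (3.9 TPM in replicate 2). In the list of SRF, the other MADS-box factor, 3 of 4 were detected with a median of 22.9 TPM: Mrtfb at 28.7 TPM, Srf at 23.6 TPM and Mrtfa at 22.2 TPM. Myocd, the muscle cofactor, was at 0.19 TPM and 0.52 TPM.

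**Figure D5:**
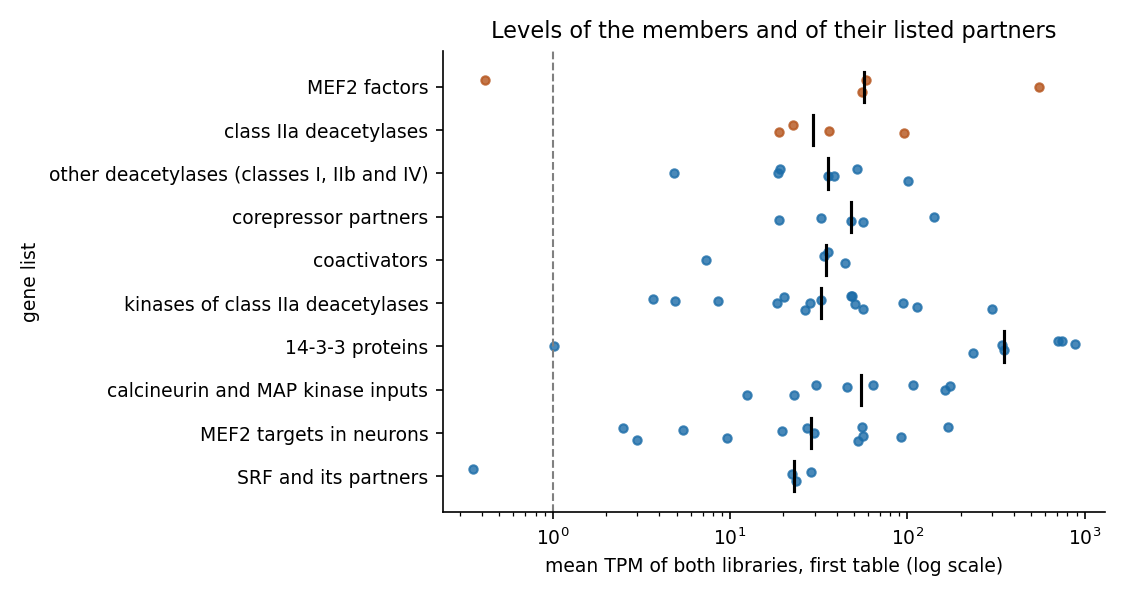
Mean TPM of both libraries in the first table, on a log axis, for each gene of the MEF2 and class IIa families (orange) and of the lists of partners (blue); black bars are medians and the dashed line is the detection minimum of 1 TPM. The Ywha genes form the list with the highest median, 352 TPM, and Mef2c lies within their range.

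The labelled tissue was checked against marker genes. Excitatory neuron markers had a median of 112 TPM (5 of 5 detected), inhibitory neuron markers 30.6 TPM (5 of 5) and astrocyte markers 46.3 TPM (4 of 4). Oligodendrocyte lineage markers had a median of 24.8 TPM (3 of 4, with Mog at 0.06 TPM and 0.1 TPM), endothelial markers 10.9 TPM (4 of 4) and microglial markers 5.92 TPM (4 of 4). Lymphocyte markers, which bear on Mef2b, were undetected (0 of 4), and their summed level was 0.15 TPM and 0.30 TPM. Blood markers were detected for 2 of 3 genes, and their summed level was 327 TPM in replicate 1 and 41.7 TPM in replicate 2. Csf1r, a microglial receptor gene, and Cldn5, an endothelial junction gene, were at 12.1 TPM and 40.7 TPM, so RNA of these cell types was present; its part in the levels of the members was not tested.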

How the data were processed

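Per the deposited file descriptions, the assembly was mm10 and the annotation GENCODE M21; tool names and versions: not given in the sources used here. The first table, from transcriptome alignments, holds expected counts that the authors deposited unscaled, with TPM, FPKM, percent of the gene and posterior intervals and scores. The second, directly from reads, holds the authors' estimated counts and TPM. Non-gene entries (0.330% and 0.346% of counts) were left out. Annotated counts summed to 29310533 and 28844674 (29886335 and 29926132 by the second table), so that 3 counts, the limit for a count of 0, are 0.102 and 0.104 CPM.

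Expected counts were rounded and scaled by TMM (edgeR 4.0.16, R 4.3.3; factors 0.985 and 1.02), with exact 95% Clopper-Pearson intervals, which were tested on simulated data. Python 3.11.15, scipy 1.17.1, biopython 1.88 and matplotlib 3.10.9 did the rest. Exon pairs were aligned globally.

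The 8 members and all lists were chosen with earlier results of these data known. Named were all members, Mef2 transcripts with a mean of at least 10% of the gene in either table, each leading Hdac transcript and others at 20%, overlapping genes, and of each list up to 3 highest and 1 lowest genes. A few of these are not reported here. Mkl1 and Mkl2 were matched as Mrtfa and Mrtfb. With 2 libraries and 1 group, no p-value was computed, and genes of similar pattern were not sought. CAST/EiJ variants were not modelled. The alternatives were the other table, rescaled TPM, posterior means, other thresholds and pseudocounts, other scalings and each library alone.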

Additional observations from a re-analysis of the deposited data

How the results depend on the processing

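No paired analysis was possible because both libraries belong to 1 group. Under the second table the share of Mef2c in the summed Mef2 TPM was 80.9%, against 82.8% in the first. The counts of members detected, pairs apart, library differences and shared leading transcripts stayed within 1.5 times their value in the alternatives run. The second table also gave 20 pairs apart, but not the same ones: Hdac4 with Hdac5 left them and Hdac4 with Hdac7 joined them. Detection went from 7 to 8 members at a minimum of 0.1 TPM, and shared leading transcripts from 5 to 4 with posterior means, where Hdac5-211 led in replicate 1, and to 6 or 7 with fewer tables compared. Shares of the alternative coding segments moved by more than the SD between libraries, and the cause was not tested. With the second table they became 68.2% (Mef2a short exon), 68.8% (Mef2a upstream exon), 66.2% (Mef2c upstream exon), 1.88% (Mef2c downstream exon), 60.7% (Mef2c short exon), 26.6% (Mef2c optional start), 97.8% (Mef2d upstream exon), 2.25% (Mef2d downstream exon) and 21.1% (Mef2d short exon). With complete coding transcripts only, added after seeing the data, they were 87.2%, 12.8% and 87.2% for the short, downstream and upstream exons of Mef2a, and 76.0%, 1.46%, 76.0% and 33.3% for the upstream, downstream and short exons and the optional start of Mef2c. With truncated copies of an exon counted, also added later, the upstream and downstream exons of Mef2c were at 61.5% and 20.7%. The ratio of Mef2d between the libraries passed from 0.993 to 1.02 with total counts and 1.01 with median-of-ratios scaling, that of Hdac5 from 1.03 to 0.990 in the second table, and Mef2a moved above Mef2d there; none of these was 1.2-fold apart between libraries. Leaving out each library gave 82.2% to 83.4% for Mef2c and 1.84 to 2.05 for the log2 ratio of the sums; the library difference has no value without a library. With 1.5-fold in place of 2-fold, 24 pairs were apart. When 1 count in both libraries together was enough, 48.0% of genes were 1.2-fold apart, against 28.3% with 20 or more. Transcript shares rest on reads divided between overlapping models, and Mef2b rests on 11 and 8 counts.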
